A study of Mus musculus with 4 samples.

Results

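Domains of H3K4me2 of intermediate width that hold exactly 1 LSD1 peak are described here, in mouse embryonic stem cells. H3K4me2 peaks of the autosomes within 1 kb of each other were joined, which gave 23226 domains. Domains of 1 kb or more and under 5 kb numbered 10507. Of these, 2601 shared at least 1 bp with exactly 1 peak of the LSD1 list, and 3 of them that also touched a peak of the IgG list were left out. The remaining 2598 domains made up 24.7% of the mid-size domains and 11.2% of all autosomal domains. Their LSD1 peaks were 2598 different ones, or 51.0% of the 5095 autosomal LSD1 peaks. All 3 peak lists thus chose the domains, so the height of LSD1 in its peaks and of H3K4me2 in the domains is given as a description. The rule used neither the place of the LSD1 peak in the domain nor Input reads. The control against which the peaks had been called is not given in the sources used here, so a choice of regions with few control reads by the calling cannot be told apart from the values of the controls below.

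The study immunoprecipitated formaldehyde-fixed, sonicated chromatin of R1 cells, a 129SV line grown with leukaemia inhibitory factor and taken at passages 13 to 18. The 4 libraries were LSD1 ChIP, H3K4me2 ChIP, a ChIP with control IgG, and Input, which is chromatin DNA taken before immunoprecipitation. They share cell line, growth and fixation, and the cells carry no treatment. Each group held 1 library, and the LSD1 library had 5833862 reads, that of H3K4me2 6416657, that of IgG 4755619 and Input 3801082. There is therefore no replicate check and no p-value, each difference is one between these libraries, and the 95% intervals cover counting error only. The labels give, for the LSD1 ChIP, an antibody number that is otherwise known for an antibody against trimethylated lysine 27 of histone H3, so LSD1 means here the library and the peaks carrying that label. Levels are in RPM, read counts scaled to the total of the library, and ratios are ratios of RPM.

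LSD1 (KDM1A) is an enzyme that takes methyl marks off lysine 4 of histone H3 where that lysine carries a single one or a pair of them. It works together with the corepressor CoREST and histone deacetylases, and in embryonic stem cells it is known for its part in silencing enhancers when the cells differentiate. H3K4me2, its substrate, marks active and poised promoters and enhancers, where it commonly lies on the nucleosomes on either side of a stretch with few nucleosomes. A domain of several H3K4me2 peaks with gaps between them is the form such a region can take in a peak list. The domains were not assigned to genes, because the gene tables at hand are of another assembly than the mm9 build of the files, and no sequence is shown for the same reason.

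The domains had a median width of 1848 bp, with quartiles at 1382 and 2465 bp, and spanned 5.33 Mb in all. They were built from 4535 H3K4me2 peaks. A single H3K4me2 peak made up 1062 of them, 2 peaks made up 1211, and 325 had 3 or more. The 1536 domains with more than 1 H3K4me2 peak contained 1937 gaps with a median length of 205 bp, and gaps took up 10.7% of the total span. The LSD1 peaks were short beside their domains, with a median width of 487.5 bp and a range of 245 to 2134 bp. They covered a median of 26.4% of the domain, and wide domains did not have much wider LSD1 peaks (Spearman's rho of 0.084 over 2598 domains).

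LSD1 peaks lay inside the domains and away from their outermost parts. By its midpoint each LSD1 peak was placed in 1 of 3 classes, which are gap where the midpoint lay between H3K4me2 peaks of the domain, middle where it lay in the central 50% of the span, and edge for the outer 25% on either side or beyond. The middle class held 1567 domains (60.3%, exact interval 58.4 to 62.2), the edge class 998 (38.4%, 36.5 to 40.3) and the gap class 33 (1.27%, 0.876 to 1.78). Of the total span, 40.6% was middle, 48.6% edge and 10.7% gap. By length alone, LSD1 peaks were thus more frequent in the middle and less frequent in gaps. The midpoint of an LSD1 peak wholly within its domain cannot come closer to an end than 50% of the peak width. Bare length leaves this limit out, so it is no measure of even placement, which was not tested. With the span cut into 3 equal parts, the edge class was the larger, with 59.5% of the midpoints on 63.1% of the span, against 39.3% on 26.2% for the middle class. In 2340 domains (90.1%) the LSD1 peak lay wholly within the domain. It ran over the lower end in 126 and over the upper end in 133, 1 domain being counted in both, by a median of 70.5 bp and at most 548 bp. The midpoint itself lay outside in 26 domains. The side of lower coordinates held 1266 midpoints (48.7%), with an interval of 46.8 to 50.7 that takes in 50%.

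The place depended on how many H3K4me2 peaks the domain had. In domains of 1 H3K4me2 peak the midpoints were most frequent in the centre. Of them, 18.2% lay from 40% to 50% of the span, 4.24% from 10% to 20% and 1.60% from 0% to 10%. In these domains the middle class took 75.9% (73.2 to 78.4), against 50% of the span and 56.9% of the H3K4me2 reads. These domains had a median width of 1381.5 bp, and their LSD1 peaks one of 514 bp. Midpoints of LSD1 peaks lying inside are therefore kept from the ends, so neither share is a measure of even placement. Whether the middle class exceeded even placement of whole peaks was not tested. Domains of 2 H3K4me2 peaks had 2 maxima, with 16.8% from 20% to 30% of the span and 17.8% from 70% to 80%, and between them a minimum of 6.44% from 40% to 50%. In domains of 3 or more H3K4me2 peaks the values were highest from 10% to 20%, from 40% to 50% and from 80% to 90% of the span, with 13.2%, 13.8% and 12.6% of 325 domains. The distribution of LSD1 thus had as many maxima as the domain had H3K4me2 peaks, where that number was 1 or 2. The middle class was 49.6% (46.8 to 52.5) in domains of 2 peaks and 49.2% (43.7 to 54.8) in those of 3 or more.

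**Figure D1:**
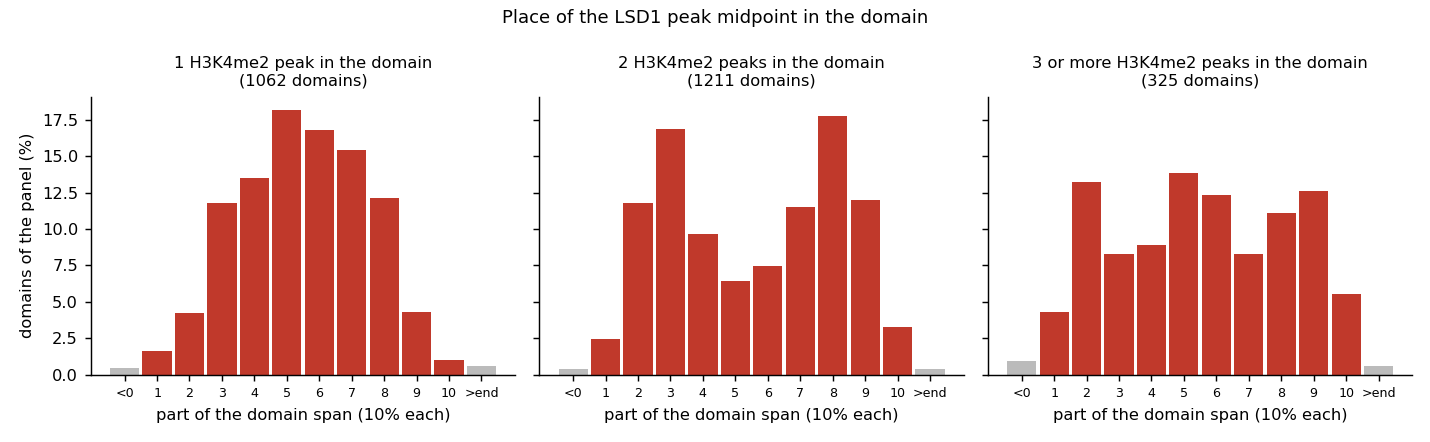
Place of the LSD1 peak midpoint in 10 equal parts of the domain span (x axis) as a share of the domains in the panel (y axis, percent), for domains of 1, 2 and 3 or more H3K4me2 peaks; grey bars are midpoints outside the domain. The 1062 domains of 1 peak have their maximum of 18.2% from 40% to 50% of the span, whereas the 1211 domains of 2 peaks have maxima of 16.8% from 20% to 30% and 17.8% from 70% to 80%.

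Single domains show what the classes look like. The middle domain with the most LSD1 reads in its LSD1 peak was chr10:80640329-80642763, a single H3K4me2 peak of 2435 bp. Its LSD1 peak of 2134 bp held 113 LSD1 and 143 H3K4me2 reads, against 33 IgG and 16 Input reads. All 5 middle domains with the most LSD1 reads had LSD1 peaks of 1114 to 2134 bp with 18 to 33 IgG reads, against a median of 3 IgG reads over all members. Their LSD1 to IgG ratios, from 2.79 (1.88 to 4.25) at that domain to 4.71 (2.84 to 8.26) at chr17:35971673-35974073, were lower than the 5.80 of all members together. High LSD1 counts in these 5 went with wide peaks and high control counts, and the part of the control signal in them was not tested.

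Among edge domains, chr9:119890149-119894642 had the most reads. Its LSD1 peak lay at 14.4% of the 4494 bp span and held 51 LSD1 reads, 71 H3K4me2 reads, 1 IgG read and no Input read. LSD1 exceeded IgG 41.6-fold there, with an interval of 7.13 to 1674 that shows how little 1 IgG read fixes. The next, chr5:137504134-137508774, carried its LSD1 peak at 84.8% of the span, with 47 LSD1 reads against 8 IgG reads (4.79-fold, 2.24 to 11.7). At the other extreme, the edge domain chr1:167389547-167392215 had 11 LSD1 reads in its LSD1 peak and no IgG read. With IgG set to the 3 reads that a count of 0 allows, LSD1 was 2.99-fold over IgG. The exact interval from the counts themselves has a lower limit of 2.05.

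In the gap class, chr12:56699664-56701820 had the most reads. Its LSD1 midpoint fell in a gap of 435 bp between H3K4me2 peaks, and its LSD1 peak held 51 LSD1 reads, 37 H3K4me2 reads, 7 IgG reads and 1 Input read. That LSD1 peak was 1231 bp wide and reached into H3K4me2 peaks on both sides. At chr17:27638130-27639868 the gap was 581 bp long, and the LSD1 peak held 37 LSD1 reads but 14 H3K4me2 reads, with 6 IgG reads. The LSD1 peak of chr3:51025753-51027675, in a gap of 882 bp, held 13 LSD1 and 8 H3K4me2 reads with no read in either control.

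**Figure D2:**
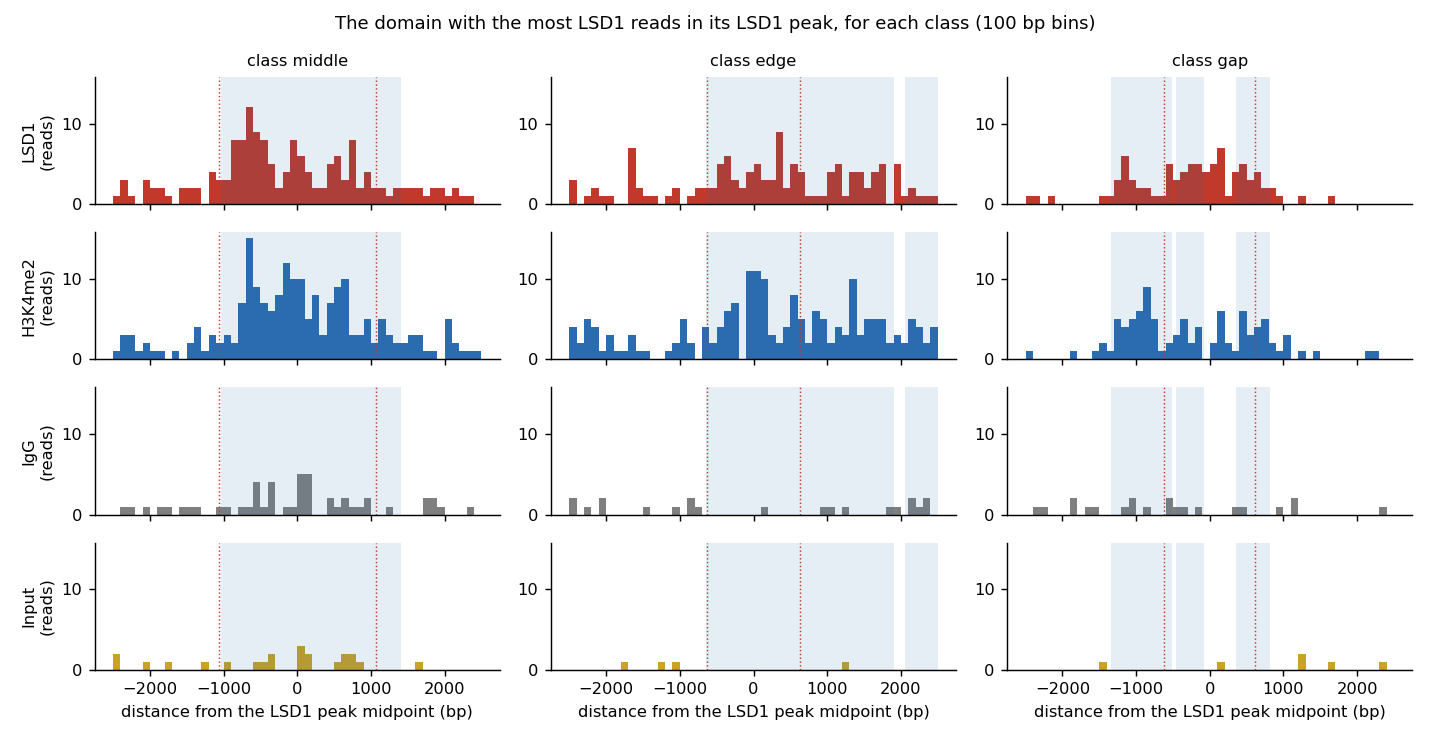
Reads per 100 bp (y axes, the same scale throughout) at distances from the LSD1 peak midpoint (x axis, bp) in the domain with the most LSD1 reads in its LSD1 peak for each class; shading marks H3K4me2 peaks and dotted lines the ends of the LSD1 peak. The control libraries reach at most 5 IgG and 3 Input reads per bin, against up to 12 LSD1 and 15 H3K4me2 reads.

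In their LSD1 peaks the domains held a median of 20 LSD1 reads (range 10 to 113), 28 H3K4me2 reads (3 to 200), 3 IgG reads (0 to 33) and 0 Input reads (0 to 16). Summed over the 2598 peaks, LSD1 exceeded IgG 5.80-fold (5.67 to 5.94) and H3K4me2 exceeded IgG 7.29-fold (7.13 to 7.46). A ratio of 2 or more of LSD1 to IgG, with 0.5 reads added to both, was found in 2565 of these peaks (98.7%), against 97.7% of all autosomal LSD1 peaks, and the peak calls chose for it. The classes differed little in the height of LSD1. The ratio was 5.61 (5.46 to 5.78) in the middle, 6.16 (5.92 to 6.42) at the edge and 6.62 (5.28 to 8.39) in gaps, the last from 690 LSD1 and 85 IgG reads. By this ratio edge peaks were slightly above middle peaks, with intervals that do not overlap, while the interval of the gap class takes in both. LSD1 itself was not higher at the edge. In the part of the peak inside the domain it had 7.19 RPM per kb at the edge and 7.30 in the middle. IgG there was lower at the edge, with 1.16 against 1.30.

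H3K4me2 set the gap class apart. Its ratio to IgG in the LSD1 peak was 7.32 (7.12 to 7.53) in the middle and 7.31 (7.03 to 7.61) at the edge, but 4.64 (3.68 to 5.90) in gaps. LSD1 relative to H3K4me2 was 0.767 (0.757 to 0.777) in the middle, 0.842 (0.827 to 0.858) at the edge and 1.43 (1.27 to 1.60) in gaps. A gap is defined by the lack of an H3K4me2 call, so a low H3K4me2 value there follows from the choice of class. LSD1 carried no such condition in the gaps beyond its own call.

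Read profiles around the LSD1 midpoint show the same classes in more detail. In the 200 bp centred on it, middle domains had 8.47 RPM per kb of LSD1 (8.33 to 8.60), 10.3 of H3K4me2 (10.2 to 10.5), 1.31 of IgG and 0.350 of Input. Edge domains had 8.54 of LSD1 (8.37 to 8.71), 9.45 of H3K4me2 (9.28 to 9.62), 1.21 of IgG and 0.297 of Input. Thus LSD1 and H3K4me2 had their maximum at the LSD1 midpoint in these classes, whereas Input was low there. IgG also had its highest 100 bp bin beside the midpoint, at 1.32 RPM per kb in the middle class and 1.23 in the edge class. At the 33 gap domains LSD1 stood at 7.43 (6.59 to 8.34) and H3K4me2 at 3.0 (2.5 to 3.57), and H3K4me2 had its maxima to the sides, with 6.32 at 200 to 600 bp inward and 6.75 at 200 to 600 bp outward. LSD1 at those distances was 4.01 and 3.60. Towards the nearer domain end H3K4me2 dropped faster in the edge class, to 3.84 at 200 to 600 bp outward against 6.27 inward. The middle class had 6.39 outward and 7.12 inward. Edge midpoints lay a median of 337 bp from the nearer end, against 634 bp for the middle class. The domain thus ends sooner in the edge class by its definition, and a faster drop follows from the choice of class.

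**Figure D3:**
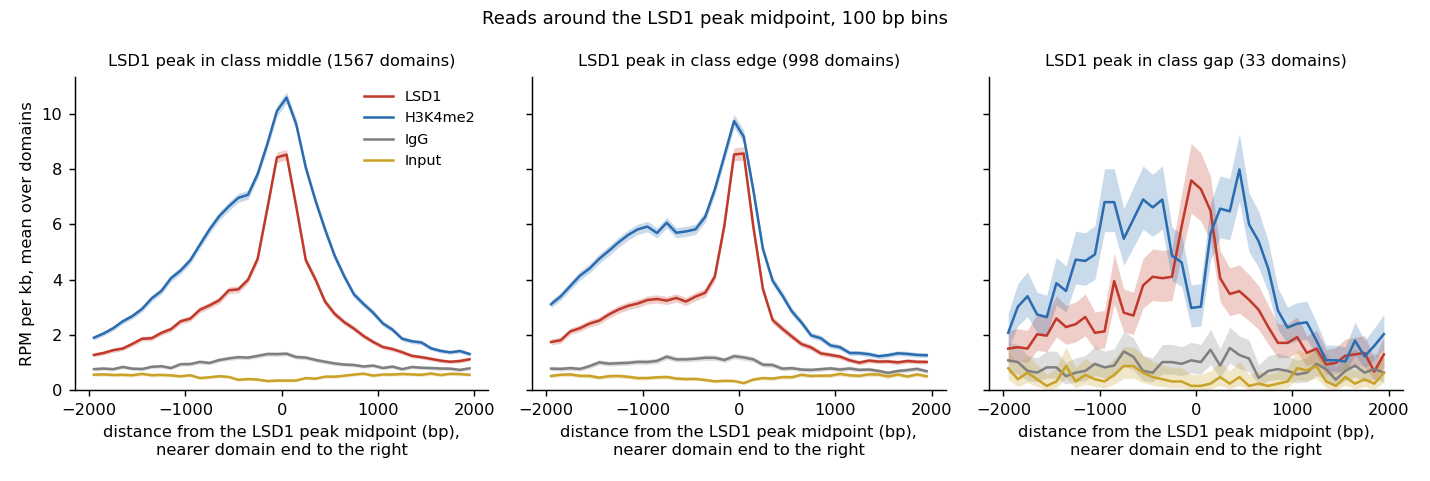
Mean RPM per kb (y axis) in 100 bp bins at distances from the LSD1 peak midpoint (x axis, bp, nearer domain end to the right) for the LSD1, H3K4me2, IgG and Input libraries, with 95% counting intervals shaded. In the middle and edge classes LSD1 and H3K4me2 peak together, with 8.47 and 10.3 in the middle class and 8.54 and 9.45 in the edge class, whereas in the 33 gap domains LSD1 peaks at 7.43 where H3K4me2 is at 3.0.

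Outside the LSD1 peak, whether LSD1 lay below or above its level in domains without an LSD1 peak depended on the control. The rest of the domain had 3.25 RPM per kb of LSD1, 6.41 of H3K4me2, 1.06 of IgG and 0.469 of Input. LSD1 to IgG in it was 3.08 (3.03 to 3.13), with 3.10 (3.03 to 3.16) in the middle class, 3.06 (2.99 to 3.13) at the edge and 3.18 (2.78 to 3.64) in the gap class. The 7543 mid-size domains without an LSD1 peak had 3.17 (3.14 to 3.20), an interval just above that of the members' rest. Over Input the direction turned, with 6.94 (6.78 to 7.12) in the members' rest and 6.12 (6.04 to 6.19) in the domains without. When the 300 bp on either side of the LSD1 peak were left out too, the members' ratio to IgG was 3.19 (3.13 to 3.25). The called stretch was taken out of the members, and no such piece was taken out of the other domains; the part of this in the comparison was not tested. Of the members, 2116 (81.4%) had a ratio of 2 or more in the rest. Of the 7543 mid-size domains without an LSD1 peak, taken whole, 6623 (87.8%) did, a larger share. Over the whole domain 2550 members did (98.2%), against 82% of all autosomal domains, a count that the LSD1 peak in the rule raises.

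The part of the domain's LSD1 reads that fell into its LSD1 peak varied widely, with a median of 44.4%, quartiles of 33.3% and 57.4% and extremes of 0% and 100%. The median was 54.3% in domains of 1 H3K4me2 peak, 41.0% in those of 2 and 28.6% in those of 3 or more. The LSD1 peak covered a median of 34.9%, 23.2% and 14.7% of the span in these domains. A smaller share of the reads thus went with a smaller share of the length. The domain chr8:129118016-129119083, of 1068 bp, lay wholly under its LSD1 peak, with 54 LSD1 reads in the peak against 7 IgG reads. Low values came from domains that the LSD1 peak barely touched. At chr2:173900318-173902798 it reached 279 bp beyond the end, overlapped 0.403% of the span and placed no LSD1 read in the domain, and at chr11:100256221-100258623 it reached 421 bp beyond, with 24 LSD1 reads against 13 H3K4me2 reads and 1 IgG read in the peak. Among domains with at least 40 LSD1 reads, 4 of the 5 with the lowest share lay on chromosome 11. That chromosome also held the most members, with 288 of 2598. A list of 5 domains does not settle whether it differs from the others.

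In domains of 2 H3K4me2 peaks the LSD1 peak lay more often in the wider and in the denser of them, by a margin to be read against their length. Of the 1211 such domains, 1186 had the LSD1 midpoint outside the gap, and it was assigned to the H3K4me2 peak on its side. These include 5 midpoints before the start of the domain and 5 beyond its end, which lay in no H3K4me2 peak of the domain. The assigned peak, called the peak with LSD1, was the wider one in 820 (69.1%, 66.4 to 71.8), where the wider peaks made up 62.9% of the peak length. It was the peak with more H3K4me2 reads per kb in 803 (67.7%, 65.0 to 70.4), where the peaks with more H3K4me2 reads per kb made up 56.3% of the peak length. The H3K4me2 peak with LSD1 had a median width of 921.5 bp, against 701.5 bp for its partner. It held 5.12 RPM per kb of LSD1, 7.90 of H3K4me2, 1.11 of IgG and 0.410 of Input, against 3.54, 7.08, 1.05 and 0.490 in the partner. H3K4me2 was thus 1.12-fold higher (1.10 to 1.13), IgG 1.07-fold higher (1.03 to 1.11) and Input 0.837 of the partner (0.784 to 0.893). Relative to IgG, H3K4me2 was 7.09 (6.91 to 7.27) in the peak with LSD1 and 6.78 (6.57 to 6.99) in the partner. The intervals overlap, which does not settle whether the ratios differ. The partner's LSD1 to IgG ratio was 3.39 (3.28 to 3.50).

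The LSD1 midpoint lay more often in the part of its assigned H3K4me2 peak nearer the gap. It lay in the gap-facing 50% of that peak in 717 of the 1186 domains (60.5%, 57.6 to 63.3). In 4 equal parts of that peak counted from the gap, the shares were 15.4%, 45.0%, 33.0% and 6.58%. The shares include the midpoints outside the domain. The LSD1 peak touched the gap in 272 of the 1211 domains of 2 H3K4me2 peaks, and in 1095 it ran over neither domain end. Both sides thus did not leave it the same room, and a preference for the gap beyond this was not tested. The median distance to the gap was 400.5 bp, and the gaps themselves had a median of 231 bp. Over all 1536 domains with a gap, the LSD1 peak touched a gap in 363 (23.6%, 21.5 to 25.8) and bridged a whole gap in 103 (6.71%, 5.51 to 8.07). Of the 33 gap-class peaks, 5 lay wholly inside the gap. The gaps under the midpoints of the 33 had a median of 372 bp and a range of 26 to 964 bp. A long gap takes in a midpoint more easily than a short one, so the class itself favours long gaps. Summed over these 33 gaps there were 449 LSD1, 274 H3K4me2, 69 IgG and 15 Input reads.

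Each LSD1 peak was also set against its mirror image, the window of equal width at the same distance from the opposite end of the same domain. This holds distance to an end, domain and width fixed, and was possible in the 1667 domains where both windows were separate. H3K4me2 was higher in the LSD1 window, with 9.01 against 7.01 RPM per kb (1.29-fold, 1.27 to 1.30), and in 1148 domains against 438 where the mirror window was higher. IgG was also higher, by less, with 1.20 against 1.08 (1.12-fold, 1.07 to 1.16). Input was lower, with 0.344 against 0.491 (0.702 of the mirror, 0.647 to 0.761). LSD1 had 7.18 against 3.53, which the call itself chose. In the edge class H3K4me2 was 1.21-fold higher (1.19 to 1.24), and in the middle class 1.41-fold (1.38 to 1.44).

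The difference was smaller where neither window reached into a gap. In the 830 domains where both windows lay wholly in H3K4me2 peaks, H3K4me2 was 1.19-fold higher (1.17 to 1.21), IgG 1.13-fold (1.07 to 1.21), and Input was 0.575 of the mirror (0.511 to 0.647). Relative to IgG, H3K4me2 in the 440 domains of 1 H3K4me2 peak was 7.26 (6.84 to 7.71) in the LSD1 window and 7.16 (6.71 to 7.64) in the mirror window, with intervals that overlap. In the 967 domains of 2 H3K4me2 peaks it was 7.63 (7.32 to 7.95) in the LSD1 window and 6.31 (6.05 to 6.59) in the mirror window, and the intervals do not overlap, but mirror windows there can reach into the gap. In the 399 domains of 2 H3K4me2 peaks with both windows wholly in H3K4me2 peaks, the ratio was 8.05 (7.54 to 8.59) in the LSD1 window and 7.49 (7.0 to 8.03) in the mirror window. Those intervals overlap, as did those of all 830 such domains, with 7.71 (7.38 to 8.06) and 7.34 (7.01 to 7.70). Relative to IgG, an excess of H3K4me2 in the LSD1 window within H3K4me2 peaks was thus not resolved by these intervals. Their overlap does not show that there is none.

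**Figure D4:**
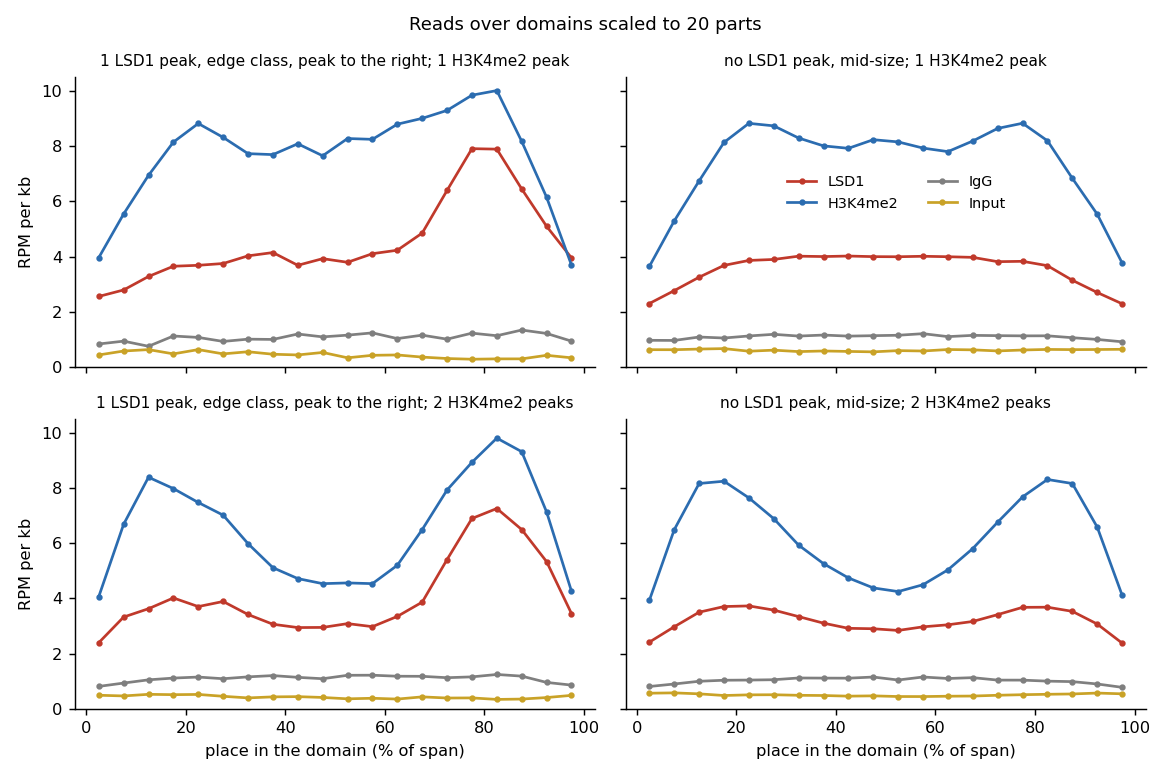
RPM per kb (y axis) in 20 equal parts of the domain (x axis, percent of span) in edge-class domains with the LSD1 peak turned to the right (left panels) and in mid-size domains without an LSD1 peak (right panels), for 1 and 2 H3K4me2 peaks and 4 libraries. On the side away from its peak, over the first 50% of the span, LSD1 runs at 2.39 to 4.15 RPM per kb in the left panels, and it is between 2.29 and 4.02 over the whole span on the right.

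Mid-size domains with and without an LSD1 peak had similar H3K4me2. The ratio to IgG over whole domains was 6.44 (6.37 to 6.52) in members and 6.30 (6.25 to 6.35) in the 7543 domains without, a small difference with intervals that do not overlap. Per domain, H3K4me2 had a median of 7.09 RPM per kb (quartiles 6.22 and 8.02) in members and 6.52 (5.76 and 7.34) in the others. A ratio of H3K4me2 to IgG of 2 or more was present in 2598 of 2598 members, against 99.4% of all autosomal domains. Members were somewhat wider, at 1848 against 1602 bp, and 12.5% (11.3 to 13.8) had 3 or more H3K4me2 peaks, against 9.32% (8.67 to 10.0). In the 362 mid-size domains with several LSD1 peaks that share was 22.9% (18.7 to 27.6), at a median width of 2498.5 bp.

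The controls moved with the LSD1 peak as well. Input had 0.447 RPM per kb in members and 0.538 in mid-size domains without an LSD1 peak, whereas IgG had 1.11 and 1.04. IgG to Input was thus 2.47 (2.41 to 2.53) in members against 1.93 (1.90 to 1.96), and it was 2 or more in 1614 members (62.1%, 60.2 to 64.0), against 50.2% of all autosomal domains. The rule used no Input value, but whether the peak calling did is not given. Against Input, LSD1 was 9.55-fold (9.35 to 9.76) in members and 6.12-fold (6.04 to 6.19) in the domains without, and H3K4me2 was 15.9-fold (15.6 to 16.3) and 12.2-fold (12 to 12.3). The size of the contrast over whole domains therefore depends on the control, and for the rest of the domain its direction does too.

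**Figure D5:**
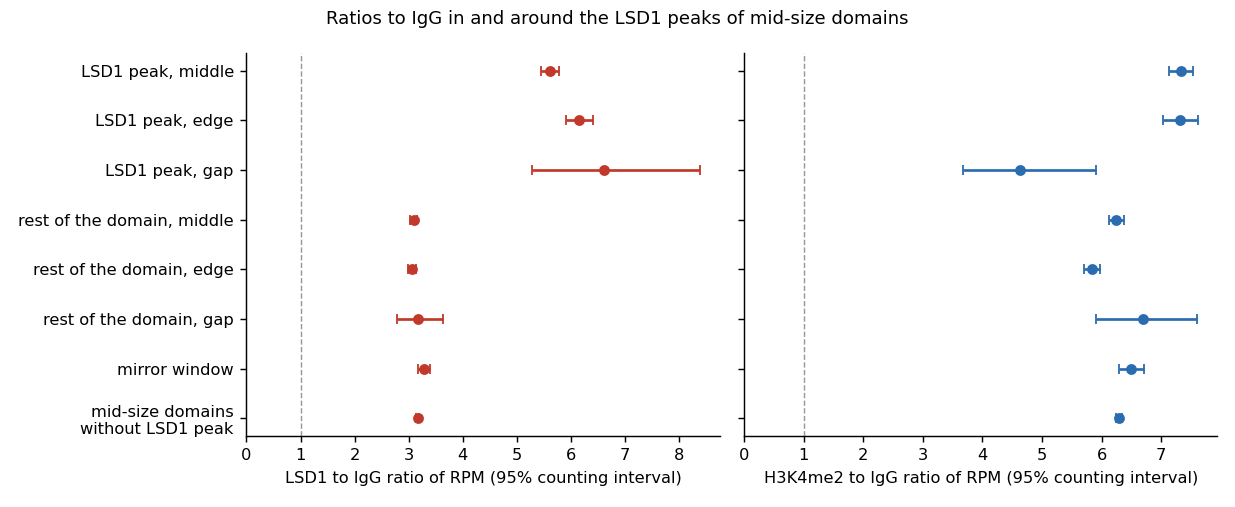
Ratios of RPM of LSD1 (left) and H3K4me2 (right) to IgG (x axes) in the LSD1 peak and in the rest of the domain by class, in the mirror windows, and in mid-size domains without an LSD1 peak; bars are 95% counting intervals and the dashed line marks equality. LSD1 lies between 5.61 and 6.62 in its peaks and between 3.06 and 3.28 elsewhere, whereas H3K4me2 is lowest, at 4.64, in LSD1 peaks of the gap class.

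Reads can also be placed without reference to the peak midpoints, although the members' LSD1 reads include those of the called peaks. In members the central 50% of the span held 53.1% of LSD1 reads (52.9 to 53.4), 50.3% of H3K4me2 reads (50.1 to 50.5), 52.4% of IgG reads (51.8 to 53.0) and 46.6% of Input reads (45.6 to 47.7). In mid-size domains without an LSD1 peak these shares were 51.5%, 48.5%, 52.7% and 48.0%, in the same order. These pooled shares hide opposite values by the number of H3K4me2 peaks. In domains of 1 H3K4me2 peak LSD1 reads were more central than IgG reads, with 58.2% (57.8 to 58.7) against 52.5% (51.5 to 53.6) in members and 55.8% (55.4 to 56.1) against 52.4% (51.7 to 53.0) in domains without an LSD1 peak. In domains of 2 they were less central, with 50.5% of LSD1 against 53.1% of IgG reads in members and 48.9% against 53.7% in domains without. Domains of 2 H3K4me2 peaks had their H3K4me2 reads away from the centre, with 46.5% in members and 43.6% in domains without LSD1.

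Wider domains had hardly more LSD1 reads in the LSD1 peak. Their middle class was smaller than that of the narrowest domains, where the width of the LSD1 peak limits its place more. From 1 to 1.5 kb the 822 members had a median of 19 LSD1 reads in the peak, and the 354 members of 3 to 5 kb had 22. LSD1 to IgG in the peak was 5.66 (5.43 to 5.91), 6.03 (5.76 to 6.32), 5.77 (5.52 to 6.02) and 5.77 (5.43 to 6.13) over the 4 width classes from narrow to wide. The distance from the midpoint to the nearer end had medians of 407, 482, 647.5 and 1014.5 bp. At any fixed place in the span this distance grows with the width of the domain. The middle class took 71.4% (68.2 to 74.5) of the narrowest, 57.5%, 53.4% and 54.5% (49.2 to 59.8) of the widest. The LSD1 peak covered a median of 37.6% of the span in the narrowest class and 14.1% in the widest. Midpoints of LSD1 peaks lying inside are thus kept further from the ends, as a share of the span, in narrow domains. Domains of 1 H3K4me2 peak, with the larger middle class, also had a median width of 1381.5 bp, against 2022 bp for those of 2. These shares are therefore no measure of a change of place with width, which was not tested. In the rest of the domain LSD1 to IgG was 3.0 (2.88 to 3.12) in the narrowest class, where domains without an LSD1 peak had 3.19 (3.15 to 3.24), and 3.22 (3.13 to 3.32) in the widest, where those had 3.19 (3.13 to 3.26).

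Across members, LSD1 and H3K4me2 reads per kb were weakly related, and both libraries share the same chromatin. Spearman's rho was 0.21 in the LSD1 peak (Pearson's r 0.24) and 0.37 in the rest of the domain (r 0.38). With IgG the values for LSD1 were 0.054 in the peak and 0.14 in the rest. LSD1 density in the peak and in the rest of the same domain had a rho of 0.038 over 2597 domains. These counts are sparse, and the values are given as a description of 1 library each.

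Members lay on every autosome. Chromosome 11 held the most, with 288 or 2.36 per Mb, followed by chromosome 7 with 258, and chromosome 16 the fewest, with 55. The median over the 19 autosomes was 1.08 per Mb. Of the mid-size domains free of IgG peaks, members made up 17.3% (13.3 to 21.9) on chromosome 16 and 29.4% (26.4 to 32.5) on chromosome 7. The middle class ranged from 51.9% on chromosome 12 to 70.5% on chromosome 14, with 77 and 61 members. The nearest other H3K4me2 domain was a median of 8.39 kb away, against 9.12 kb for domains without an LSD1 peak. A further LSD1 peak lay within 5 kb of 237 members (9.12%, 8.04 to 10.3), against 6.91% (6.34 to 7.50) of the domains without.

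The domains nearest to the width limits are given as single values. Just inside the lower width limit, chr2:76176233-76177232 and chr9:59539390-59540389, both of 1000 bp, had 28 and 31 LSD1 reads and 3 and 7 IgG reads in their LSD1 peaks. Just outside it, domains of 999 bp on chromosome 9 and 997 bp on chromosome 15 had 13 and 15 LSD1 reads and 3 and 2 IgG reads, fewer LSD1 reads than the pair inside. At the upper limit, domains of 4987 and 4985 bp on chromosomes 17 and 7 had 21 and 32 LSD1 reads and 3 and 6 IgG reads, against 16 and 38 LSD1 reads and 1 and 7 IgG reads in the domains of 5010 and 5011 bp on chromosomes 7 and 6, and the LSD1 counts of both pairs overlap.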

How the data were processed

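Read counts per region were summed from the aligned 36-base reads that the authors deposited, and peaks were taken from their deposited lists for LSD1, H3K4me2 and IgG, which hold positions without scores. The build is mm9 (per the submitters' processing notes). Which aligner, read filter, peak caller and calling control were used was not given in the sources used here. Within each library, every pair of start and strand was present once. Per the labels' protocols, fragments of about 200 bp were selected. Read starts were moved 100 bp along their strand, counted per region and scaled to all reads of the library. Shares carry exact Clopper-Pearson 95% intervals, and ratios exact binomial 95% intervals conditional on both counts. A count of 0 allows up to 3 reads, or 0.631 RPM in IgG and 0.789 RPM in Input. These values cover counting error only and were not adjusted for the number of regions. The ratios and the classes were tested on simulated data. The domains, classes and comparisons were chosen with earlier results of these data known. The mirror windows, the domains of 2 H3K4me2 peaks and the alternatives for them, and the rest without 300 bp, were added after seeing the data. Named domains are, for each class, among the 5 with the most and the 3 with the fewest LSD1 reads in the LSD1 peak, the 5 with the highest and the lowest share of LSD1 reads in it (at least 40 LSD1 reads), all with under 100 Input reads, and those nearest to the width limits. Promoters, genes and sequences were not analysed here. Positions are in mm9, counted from 1. Counting was done in Python 3.11.15 with pandas 2.3.3 and numpy 2.4.6, intervals came from scipy 1.17.1, and plots from matplotlib 3.10.9.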

Additional observations from a re-analysis of the deposited data

How the results depend on the processing

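Over 13 results, 59 alternative values were computed, 5 of them chosen after seeing the data. Of these, 31 stayed within the main interval (counts within 1.5 times), 28 moved beyond it, and no ratio turned to the other side of 1. The limit of 20 Input reads left out no member, so its values, though counted among the 31, say nothing. The same holds for the gap class by 3 equal parts of the span, which these cuts cannot change. Which class is the larger depends on its definition: by 3 equal parts of the span, 39.3% were middle and 59.5% edge. By peaks joined within 500 bp the middle, edge and gap classes were 65.6%, 33.5% and 0.827%. Joined within 2 kb, the middle and edge classes were 56.8% and 41.5%, and for the upper 50% of LSD1 peaks the 3 classes were 63.3%, 36.2% and 0.538%. By the LSD1 read maximum, 2275 members (87.6%) kept their class. With Input as the control, LSD1 was 18.7-fold in its peaks and 6.94-fold in the rest, and H3K4me2 15.9-fold in the domain. Scaled to reads outside peaks, these 3 were 6.28, 3.33 and 7.81. For the upper 50% of LSD1 peaks, LSD1 to IgG in the peaks was 6.03, H3K4me2 density in the LSD1 peak over the rest 1.49 (1.44 for all), the central share of LSD1 reads 53.7%, IgG to Input 2.30 and the mirror ratio of H3K4me2 1.34. Joined within 500 bp, LSD1 to IgG in the rest was 3.15, H3K4me2 to IgG 6.69, that density ratio 1.39 and that central share 55.0%. With starts not moved the density ratio was 1.42. The mirror ratio was 1.19 with both windows wholly in H3K4me2 peaks, and LSD1 to IgG in the rest was 3.19 without the 300 bp beside the peak. The cause was not tested for any of these shifts. At a fold of 3 in place of 2, 1987 members passed, against 54.1% of all autosomal domains. No paired analysis was possible because no antibody or control had more than 1 library. With a median of 3 IgG reads in an LSD1 peak, single peaks are poorly determined, and the sums carry the comparisons.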
